A study of Homo sapiens with 12 samples.

Results

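Eliglustat was added to venetoclax in cultured leukemia cells, and the transcriptome of cells given both drugs (Comb, 3 libraries) was set against that of cells given venetoclax without eliglustat (ABT, 3 libraries). These are 6 of the 12 libraries of the study, chosen by the drug names in the sample titles, and 9959 of the 20036 genes in the deposited table reached 1 FPKM (fragments per kilobase of gene, scaled to the library's reads) in at least 3 libraries and were compared. All cells were MV-4-11, an established line of acute myeloid leukemia with monocytic traits, known for its KMT2A-AFF1 fusion gene and for an activating duplication within FLT3, a receptor kinase; the labels give bone marrow as its tissue and WT as its genotype. Treatment lasted 48 h, the sources used here state no dose, and the remaining 6 libraries received vehicle (DMSO) or eliglustat without venetoclax (ELI), 3 each. With 1 cell line, nothing here speaks to other leukemias or to patients.

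Glucosylceramide synthase, the product of UGCG, joins glucose to ceramide and so opens the path to the complex glycosphingolipids of cell membranes; eliglustat blocks this enzyme. Ceramide has other fates: it can be turned into sphingomyelin, phosphorylated, or cut by ceramidases into sphingosine. Venetoclax, also called ABT-199, occupies the groove of the survival protein BCL2 and frees the death-promoting proteins bound there, and acute myeloid leukemia cells are often dependent on BCL2. The series title ties UGCG and venetoclax to the small GTPase RAB32 and to contact sites where the endoplasmic reticulum touches mitochondria.

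The libraries held 17259905 to 21082313 reads assigned to genes, so that 1 read of a 5 kb gene was worth 0.0095 to 0.012 FPKM. Of 20 markers of the line, 18 were high enough to be tested, with FLT3 at 189 to 372 FPKM and SPI1 at 97.3 to 123 FPKM over the 12 libraries, and CD93 and CEBPE stayed under 1 FPKM. Their summed level was 817 to 863 FPKM in ABT and 958 to 973 in Comb. Markers of B cells summed to 4.33 to 5.39 FPKM in ABT and 1.87 to 2.31 in Comb, and 8 of 14 erythroid and megakaryocyte markers were at 0 in every library. T and NK markers summed to 51.5 to 56 FPKM in ABT and 44 to 46.3 in Comb, and of these NKG7, at 39.2 to 58.2 FPKM over the 12 libraries, and NCAM1, at 4.02 to 6.25, passed the filter. Stromal and epithelial markers summed to 17.7 to 19.7 FPKM in ABT and 20.8 to 21 in Comb, with PECAM1 at 11 to 19 FPKM over the 12 libraries and 5 of 15 at 0 throughout. The base composition of genes moved with the comparison: Spearman's rho across genes between GC content and Comb minus ABT was -0.54, and the deviation of ABT replicate 1 from its group followed GC content with a rho of -0.70, against 0.38 and 0.62 for ABT replicates 2 and 3 and -0.29 to 0.26 for Comb. Differences were therefore also computed after a smooth trend on base composition and length was taken out of every library (trend removed, after which the rho was -0.03). Those values stand beside many, but not all, of the results that they moved. The part of base composition in the results was not tested beyond this.

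Adding eliglustat to venetoclax changed most of the measured transcriptome. On the log2(FPKM + 1) scale, where folds of weakly expressed genes come out too small, limma called 6691 genes at an adjusted p under 0.05 (67.2% of those tested), 3530 higher in Comb (35.4%) and 3161 lower (31.7%). With the trend removed the calls were 3160 higher (31.8%) and 3561 lower (35.8%) of 9936 genes; 5064 genes kept their call with the same sign and 145 were called with the opposite one. Changes of at least 1 on the log2 scale were far fewer, 431 higher (4.33%) and 254 lower (2.55%), and 683 of these 685 genes were called with the same sign after trend removal. The median over all genes was 0.02. Whether libraries of a group are separate cultures is not stated; p-values thus reflect only how far these libraries differ among themselves, possibly for technical reasons alone. In bulk RNA, fewer cells of a kind and less transcript per cell cannot be told apart.

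The largest rises were of genes for a transcriptional repressor, secreted and surface proteins, and enzymes of heme and ceramide breakdown. BHLHE40, a basic helix-loop-helix repressor, stood at 3.68, 3.80 and 3.68 FPKM in the ABT libraries and at 46.9, 44.0 and 46.0 in Comb, a rise of 3.30 (SE 0.08, limma adjusted p = 4.1e-10). The groups were far apart, with 12.3 times the ABT level in Comb. LGALS2, a galectin that binds galactose-bearing sugars, read 1.68, 1.26 and 1.81 FPKM in ABT and 22.3, 20.2 and 17.6 in Comb (3.02, SE 0.11, limma adjusted p = 2.8e-09). The chemokine gene CXCL8 read 4.52, 2.40 and 2.08 FPKM against 26.8, 29.5 and 28.4 (2.92, SE 0.23, limma adjusted p = 1e-06; 2.39 with the trend removed). HMOX1, the enzyme that opens the heme ring, rose from 1.35, 1.85 and 1.70 FPKM to 16.5, 15.2 and 15.7 (2.68, SE 0.11, limma adjusted p = 4.4e-09). In none of these genes did a Comb library come near an ABT library, but lack of overlap was a condition of their choice. The 2 groups did not overlap in 7619 of the tested genes (76.5%). The sialic acid receptor SIGLEC6 rose by 2.86, the collagen chain COL6A1 by 2.78, the secreted amino acid oxidase IL4I1 by 2.58, acid ceramidase ASAH1 by 2.48, the lipid scavenger receptor CD36 by 2.40 (1.92 with the trend removed) and the oxygenase CYP1B1 by 2.26, each with a limma adjusted p of 2.3e-06 or lower.

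The largest falls were of S100 alarmins and of genes that copy and package DNA. S100A9 and S100A8 encode the partners of a secreted calcium-binding dimer of myeloid cells. S100A9 dropped from 97.2, 90.0 and 109 FPKM in ABT to 15.4, 12.7 and 16.6 in Comb (-2.65, SE 0.11, limma adjusted p = 5.5e-09). S100A8 went from 49.2, 44.3 and 49.7 FPKM to 10.9, 6.69 and 8.62 (-2.34, SE 0.13, limma adjusted p = 3.1e-08). Both were lower in every Comb library than in any ABT library, which was a condition of their choice. Thymidine kinase TK1 (-2.32), the histone chaperone ASF1B (-2.32), the cell cycle transcription factor MYBL2 (-2.29), the kinetochore subunit SPC24 (-2.27), the origin recognition subunit ORC1 (-2.22), the helicase component CDC45 (-2.22), the surrogate light chain IGLL1 (-2.20) and the transcription factor E2F2 (-2.16) completed the set of 10, with limma adjusted p-values of 1.6e-07 or lower. With the trend removed these 8 genes lay between -2.11 (ASF1B and ORC1) and -1.96 (E2F2), S100A9 at -2.49 and S100A8 at -2.27.

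**Figure D1:**
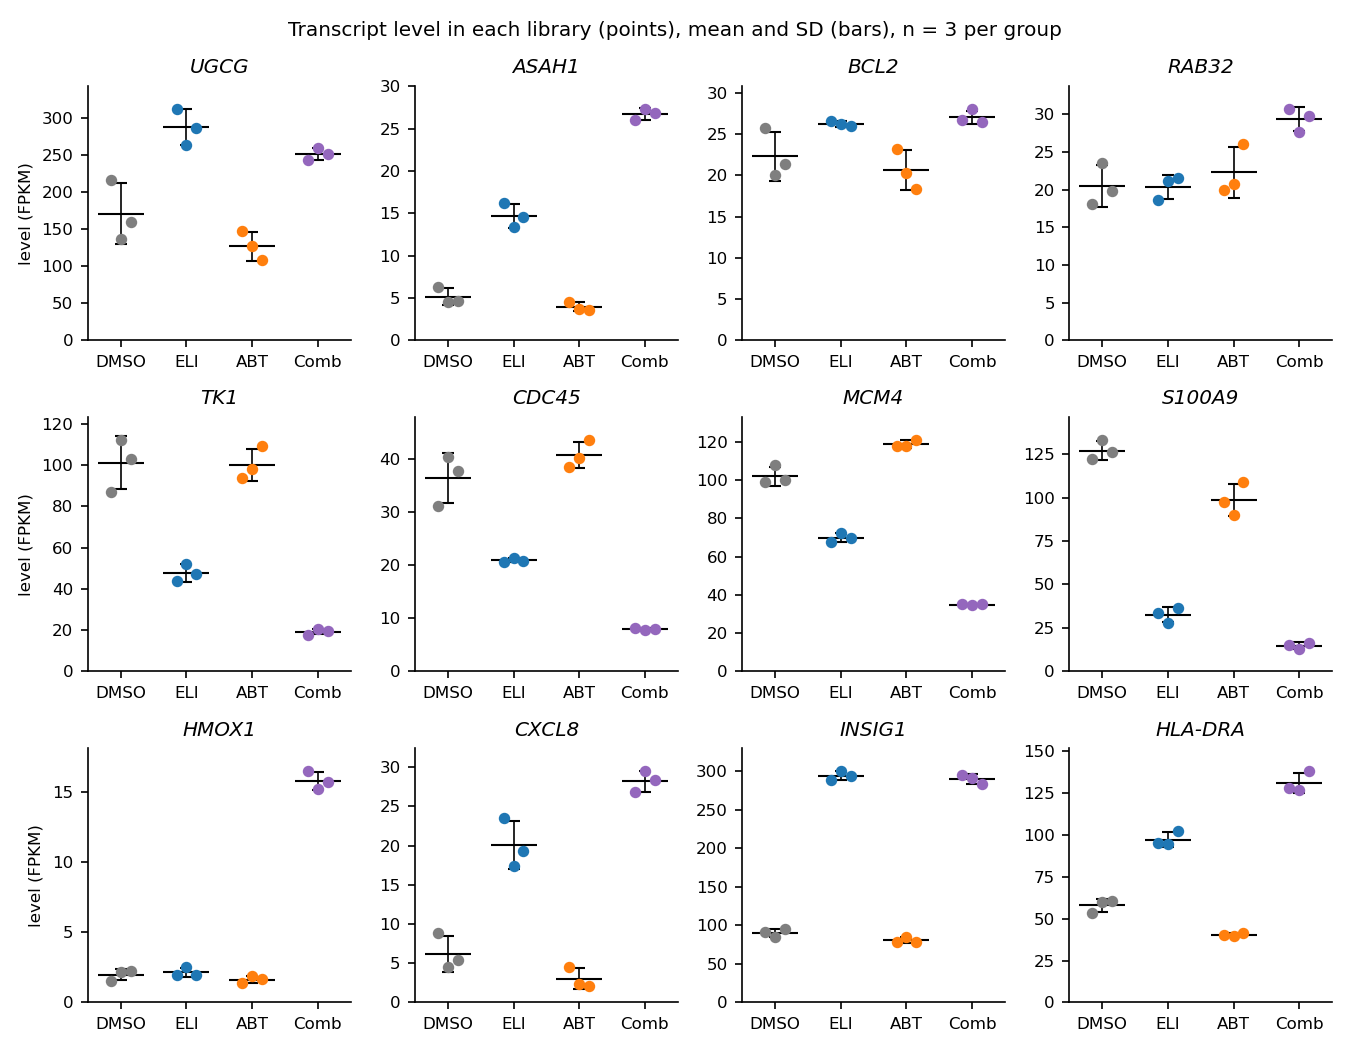
Level of 12 named genes in each library in FPKM on linear axes from 0, by group, with points for libraries and bars for the mean and SD of 3. In TK1, CDC45, MCM4 and S100A9 the Comb libraries lie below all others, in HMOX1 only the Comb libraries rise, at 15.2 to 16.5 FPKM, and INSIG1 is at about the same level in ELI and Comb.

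The drug targets and the gene of the title rose modestly. UGCG, the target of eliglustat, measured 147, 127 and 108 FPKM in ABT and 244, 260 and 251 in Comb, a rise of 0.99 (SE 0.15, limma adjusted p = 0.00016) that came to 0.64 with the trend removed. The target of venetoclax, BCL2, measured 23.2, 20.3 and 18.3 FPKM in ABT and 26.7, 28.0 and 26.4 in Comb (0.38, SE 0.10, limma adjusted p = 0.0043; 0.20 with the trend removed, limma adjusted p = 0.0046). RAB32, which anchors protein kinase A at mitochondria, measured 20, 20.7 and 26.1 FPKM in ABT and 30.7, 27.6 and 29.8 in Comb (0.39, SE 0.11, limma adjusted p = 0.0086; 0.53 with the trend removed). For each of the 3 genes the lowest Comb library lay above the highest ABT library, by the least margin for RAB32. Such a lack of overlap, in either direction, was seen in 76.5% of all tested genes.

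In the pathway that eliglustat blocks, no tested gene of glycosphingolipid synthesis fell. Of 23 genes listed, 12 passed the filter, and of these 6 rose, 0 fell and 6 did not pass, with a median of 0.43 against 0.02 over all genes. The shares over all genes were 35.4% higher and 31.7% lower, and a difference from them was not tested. With a mean of at least 5 FPKM required, which leaves out weakly expressed members, 2 rose and 0 fell. After trend removal 10 rose. A4GALT, the synthase of globotriaosylceramide, rose from 1.73, 1.90 and 1.64 FPKM to 4.15, 4.20 and 4.09 (0.90, SE 0.09, limma adjusted p = 4.6e-06). FUT4, a fucosyltransferase that makes the Lewis x sugar, went from 18.2, 19.6 and 15.6 FPKM to 31.5, 30.3 and 30.6 (0.77, SE 0.08). UGCG itself, the sialyltransferase ST3GAL6 (0.67; 0.39 with the trend removed), the galactosylceramide synthase UGT8 (0.77; 0.50) and B3GNT5 (0.84), which starts the lacto series, were the other 4, and ST3GAL6, UGT8 and B3GNT5 were under 1 FPKM on average in ABT, so that they passed the filter through the groups where they were higher. ST3GAL6 was under 1 FPKM in every DMSO, ELI and ABT library, so it passed through Comb alone. The count of 6 rises and the median of 0.43 thus rest in part on the filter. B3GNT5 came to 0.16 with the trend removed (limma adjusted p = 0.058). The lactosylceramide synthase B4GALT5, at 39.9 ± 0.479 FPKM in ABT and 45.3 ± 2.26 in Comb (SD, n = 3), differed by 0.18 (limma adjusted p = 0.053), and passed after trend removal (0.21, limma adjusted p = 0.0083).

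For genes that take sphingolipids apart in the lysosome, 16 were tested (17 listed), of which 12 rose, 0 fell and 4 did not pass, with a median of 0.54. All tested genes had shares of 35.4% higher and 31.7% lower, and a difference from them was not tested. With the trend removed 11 rose and 1 fell (median 0.38). Acid ceramidase ASAH1, which splits ceramide into sphingosine and a fatty acid, led at 4.58, 3.72 and 3.63 FPKM in ABT and 26.0, 27.3 and 26.9 in Comb (2.48, SE 0.11, limma adjusted p = 9.6e-09). Its Comb level was 6.72 times that in ABT, and the difference was 2.10 with the trend removed. The sialidase NEU1 rose from 6.40, 7.47 and 8.03 FPKM to 14.3, 13.7 and 14 (0.86), and the sterol carrier NPC2 from 7.57, 7.29 and 7.21 to 13.6, 12.8 and 13.6 (0.78), with limma adjusted p-values of 1e-05 or lower. PSAP, the precursor of the saposins that present sphingolipids to these enzymes, went from 68.7 ± 6.45 to 131 ± 2.63 FPKM (SD, n = 3; 0.93, SE 0.10, limma adjusted p = 1.2e-05). The acid sphingomyelinase SMPD1 differed by -0.21 (limma adjusted p = 0.066). SCARB2, a lysosomal membrane protein, was called higher as deposited (0.22) and lower with the trend removed (-0.13, limma adjusted p = 0.032).

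Ceramide and sphingomyelin genes went both ways, as did all tested genes, of which 35.4% were higher and 31.7% lower. A difference from those shares was not tested. Of 26 tested (36 listed), 12 rose, 7 fell and 7 did not pass, with a median of 0.14, and the counts after trend removal were also 12 and 7. NSMAF, an adaptor of neutral sphingomyelinase, rose from 31.5, 32.5 and 28.5 FPKM to 74.7, 73.0 and 73.6 (1.23, SE 0.06, limma adjusted p = 2.3e-08). The ceramide transfer protein CERT1 rose by 1.31 (0.85 with the trend removed) and the sphingomyelin synthase SGMS1 by 0.66 (0.38), and SPTLC2, a subunit of the enzyme that starts sphingolipid synthesis, by 0.85. SGMS1 was under 1 FPKM in every ABT and DMSO library, so it passed the filter only through groups in which it was higher. SMPD4, a neutral sphingomyelinase, fell from 15.4, 16.3 and 15.8 FPKM to 7.49, 7.76 and 7.63 (-0.96, SE 0.09, limma adjusted p = 3e-06). Sphingosine kinase SPHK1 (-0.59; -0.38 with the trend removed) and ceramide kinase CERK (-0.48) were lower too.

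Of the BCL2 family, 18 of 22 genes were tested: 7 were higher, 7 lower and 4 not past the threshold (median -0.06), shares near the 35.4% and 31.7% of all genes; with the trend removed 7 were higher and 6 lower. Among survival genes, BCL2 and MCL1 (50.3 ± 4.34 to 60.8 ± 0.778 FPKM, SD, n = 3; 0.27, limma adjusted p = 0.0056; 0.14 with the trend removed) rose slightly. BCL2A1 rose from 0.299 ± 0.0582 to 1.28 ± 0.229 FPKM (0.81, limma adjusted p = 2e-04; 0.52 with the trend removed). It was under 1 FPKM on average in ABT, so it passed the filter through groups where it was higher. BCL2L1, which encodes BCL-XL, was at 4.88 ± 0.262 FPKM in ABT and 4.65 ± 0.181 in Comb (-0.06, SE 0.11, limma adjusted p = 0.65). The death-promoting sensors went several ways. BCL2L11, which encodes BIM, rose from 8.10, 7.31 and 7.96 FPKM to 17.8, 17.5 and 18.5 (1.11, SE 0.08, limma adjusted p = 3.6e-07), BMF rose by 0.81 and BBC3, which encodes PUMA, by 0.51. BIK fell from 32.6, 38.9 and 38.6 FPKM to 19.7, 18.7 and 21.6 (-0.84, SE 0.12, limma adjusted p = 7.7e-05), BAD by 0.29 and BID by 0.22; with the trend removed BAD stood at -0.06 (limma adjusted p = 0.52) and BID at -0.14. Both pore-forming effectors were lower: BAX fell from 48.3 ± 3.26 to 33.6 ± 1.03 FPKM (-0.51, limma adjusted p = 5e-04) and BAK1 from 24.9 ± 1.70 to 16.7 ± 1.03 (-0.55, limma adjusted p = 0.00082), at -0.29 and -0.34 with the trend removed. BNIP3L, a mitophagy receptor, showed the largest change, from 19.2, 14.9 and 13.3 FPKM to 51.4, 56.6 and 56.6 (1.75, SE 0.19, limma adjusted p = 1.2e-05), which came to 1.29 with the trend removed. BCL2L12 fell from 25.4, 26.1 and 26.9 FPKM to 12, 12.8 and 12.9 (-1). BNIP3 fell by 0.35 and did not pass with the trend removed (-0.22, limma adjusted p = 0.06). PMAIP1, which encodes NOXA, was at 9.45 ± 1.98 and 9.44 ± 0.418 FPKM (0.01, SE 0.16), but was called lower once the trend was removed (-0.43, limma adjusted p = 0.00011). BCL2L2 and BCL2L13 did not pass.

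In the list of caspases and their regulators, 5 genes rose, 7 fell and 9 did not pass among 21 tested of 24. All tested genes had shares of 35.4% higher and 31.7% lower, the latter near that of this list. With the trend removed 4 rose and 10 fell, and 11 fell with the replicate block added to it. CFLAR, the inhibitor of caspase activation at death receptors, rose from 4.93, 4.74 and 4.59 FPKM to 14, 14.3 and 14 (1.39, SE 0.07, limma adjusted p = 2e-08). The inhibitor of apoptosis BIRC2 rose by 1.38 (0.86 with the trend removed). BIRC5, a chromosomal passenger protein also counted among mitotic genes, fell from 53.7, 63.3 and 64.8 FPKM to 21.3, 22.3 and 21.6 (-1.44, SE 0.10, limma adjusted p = 3.1e-07). CASP2 (-0.92) and CASP6 (-0.75) fell.

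Contact site genes, which act where the endoplasmic reticulum meets mitochondria, gave 23 higher, 16 lower and 14 not past the threshold among 53 tested of 56 (median 0.06), and 17 higher and 19 lower with the trend removed (median -0.05). These counts lie near the shares over all genes, 35.4% and 31.7% as deposited and 31.8% and 35.8% with the trend removed. The calcium channel ITPR3 fell from 3.53, 3.48 and 3.92 FPKM to 1.23, 1.23 and 1.08 (-1.09, SE 0.07, limma adjusted p = 2e-07). ATAD3A, an inner membrane ATPase at contact sites, fell from 32.7, 33.5 and 33.7 FPKM to 14.3, 15.5 and 15.4 (-1.09), and the sterol transporter GRAMD1A by 0.60. The chaperone CANX rose from 85.5, 73.2 and 69.1 FPKM to 118, 117 and 116 (0.62; 0.20 with the trend removed). The lipid transfer protein OSBPL8 (1.63), the acyl-CoA synthetase ACSL4 (1.36) and VPS13C (1.13), picked after their values were seen as the largest rises, came to 0.92, 0.71 and 0.44 with the trend removed. The tether MFN2 fell by 0.57 while MFN1 rose by 0.73 (0.28 with the trend removed). RAB38, the closest relative of RAB32 in the list, went from 0.713 ± 0.156 to 1.55 ± 0.263 FPKM (0.57, limma adjusted p = 0.00043). It too was under 1 FPKM on average in ABT and passed the filter through groups where it was higher. VAPA, CISD2 and ERO1A were called higher as deposited and had negative values after trend removal.

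Genes of DNA replication fell almost throughout, while 31.7% of all tested genes were called lower. All 70 listed S phase genes were tested, 67 fell, 0 rose and 3 did not pass (BRCA2 -0.32, WDHD1 -0.27 and TOPBP1 -0.25), and after trend removal all 70 were called lower. The median was -1.45 (-1.44 with the trend removed) and 55 members fell by at least 1. TK1, which salvages thymidine, went from 93.9, 98.1 and 109 FPKM to 17.8, 20.4 and 19.7, a level 0.192 times that in ABT. CDC45, a part of the replicative helicase, went from 38.6, 40.3 and 43.6 FPKM to 8.13, 7.88 and 7.93, and the ribonucleotide reductase subunit RRM2 from 72.1, 73.1 and 70.7 to 20.4, 19.8 and 20.9 (-1.77, SE 0.05, limma adjusted p = 1.1e-09). The helicase subunits MCM4 (118, 118 and 121 FPKM to 35.1, 34.6 and 35.3; -1.74) and MCM3 (141, 139 and 146 to 45.8, 42.7 and 45.7; -1.65) and the licensing factor CDC6 (31.7, 30.4 and 28.2 to 8.43, 8.37 and 8.61; -1.71) fell with them. Within each group the 3 libraries of these genes were close, and the gap between groups was many times that spread.

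Mitotic genes fell less evenly. All tested genes had shares of 35.4% higher and 31.7% lower. Of 67 tested (69 listed), 42 fell, 2 rose and 23 did not pass, with a median of -0.65; with the trend removed 56 fell, 0 rose, and the median was -0.80. MYBL2 went from 186, 205 and 218 FPKM to 39.9, 42.1 and 40.1, and SPC24 from 25.5, 26.7 and 29.2 to 4.75, 5.04 and 4.66. The condensin subunit NCAPH (26.3, 27.4 and 26.9 FPKM to 8.88, 8.93 and 8.62; -1.51) and the kinesin KIFC1 (44.9, 47.5 and 47.0 to 15.4, 15 and 15.5; -1.54) followed, each with a limma adjusted p of 1e-08 or lower. The 2 genes called higher, the condensin subunit SMC4 (1.06, SE 0.34, limma adjusted p = 0.017) and the spindle protein CKAP2 (0.70, limma adjusted p = 0.04), had SDs of 3.72 and 3.74 FPKM in ABT and were no longer called after trend removal (0.41 and 0.13); without the 4 libraries numbered 1, 12 mitotic genes were called higher. MKI67, the usual proliferation marker, fell by 0.65 and the mitotic cyclin CCNB1 by 0.62, while CDK1 at -0.38 did not pass as deposited and did at -0.92 with the trend removed.

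The start of transcription of these genes is shown because replication genes are classic targets of the E2F factors, some of which (E2F1, E2F2 and E2F7) fell themselves, and mitotic genes of factors that read the cell cycle homology region, CHR. The window searched on both strands ran from 250 bases before to 50 bases after the start, from RefSeq with build GRCh38.p14, for E2F the words TTTCCCGC, TTTCGCGC, TTTGCCGC and TTTGGCGC, and for CHR the word TTTGAA. Each line below gives the 120 bases before the start, 5′ to 3′ along the gene's strand, with the word or its reverse complement in capitals. Shown are the 3 genes of each list with the largest fall among those that hold a word in these 120 bases; overlap with other words was not examined.
E2F2: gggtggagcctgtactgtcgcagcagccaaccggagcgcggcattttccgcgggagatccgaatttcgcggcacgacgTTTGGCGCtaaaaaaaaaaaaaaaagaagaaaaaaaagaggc
UHRF1: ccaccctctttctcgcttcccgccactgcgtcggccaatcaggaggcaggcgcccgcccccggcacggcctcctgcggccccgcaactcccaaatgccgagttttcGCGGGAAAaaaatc
E2F1: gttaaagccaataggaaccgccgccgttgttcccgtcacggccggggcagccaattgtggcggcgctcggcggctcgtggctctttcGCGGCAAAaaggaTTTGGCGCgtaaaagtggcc
ESPL1: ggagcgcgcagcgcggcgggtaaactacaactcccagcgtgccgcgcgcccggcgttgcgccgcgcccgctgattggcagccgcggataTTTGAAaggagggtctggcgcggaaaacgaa
GTSE1: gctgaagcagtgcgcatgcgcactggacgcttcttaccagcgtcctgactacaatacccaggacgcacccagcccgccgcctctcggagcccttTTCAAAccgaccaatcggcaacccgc
CDC20: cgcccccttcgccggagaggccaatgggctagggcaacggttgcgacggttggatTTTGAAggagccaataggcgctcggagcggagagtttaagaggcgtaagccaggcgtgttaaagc
They lie at chr1:23531234-23531353 (E2F2, minus strand), chr19:4909381-4909500 (UHRF1, plus), chr20:33686386-33686505 (E2F1, minus), chr12:53268179-53268298 (ESPL1, plus), chr22:46296750-46296869 (GTSE1, plus) and chr1:43358861-43358980 (CDC20, plus). E2F2 fell by 2.16, the DNA methylation cofactor UHRF1 by 1.99, E2F1 by 1.89, separase ESPL1 by 1.37, the spindle protein GTSE1 by 1.31 and the anaphase activator CDC20 by 1.26. An E2F word was present in 27 of the 57 S phase genes with a promoter in the table (47.4%), against 480 of 8178 tested genes (5.87%), 20.5% of genes that fell by at least 1 and 4.72% of those that rose by at least 1. A CHR word was present in 37 of 57 mitotic genes (64.9%) against 9.79% of tested genes. No test of a difference between genes with and without a word was run. The median was -1.50 for S phase genes with an E2F word (n = 27) and -1.42 for those without (n = 30), and -0.38 for mitotic genes with a CHR word (n = 37) and -0.76 without (n = 20). A match is a description of letters, not evidence of binding, and its absence speaks only for this window.

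Brakes of the cell cycle and p53 targets did not move as a block. Of 32 tested (36 listed), 15 rose, 9 fell and 8 did not pass (median 0.24). For this list and the histones below, the shares over all genes were 35.4% higher and 31.7% lower. Differences from those shares were not tested. The inhibitor CDKN1B, which encodes p27, rose from 10.3, 8.96 and 8.04 FPKM to 21.2, 20.8 and 20.4 (1.12, SE 0.08, limma adjusted p = 4.8e-07), CDKN2B from 0.298, 0.291 and 0.252 to 1.69, 1.66 and 1.74 (1.08; under 1 FPKM in every ABT and DMSO library, so it passed the filter only through ELI and Comb), and the antiproliferative gene BTG2 from 19.0, 21.6 and 21 to 50.5, 46.2 and 49.5 (1.21). CDKN1A, which encodes p21, was at 1.94 ± 0.163 FPKM in ABT and 1.76 ± 0.152 in Comb (SD, n = 3; -0.09, SE 0.14, limma adjusted p = 0.59). The repair gene DDB2 fell from 11.4, 11.8 and 11.0 FPKM to 4.03, 3.97 and 3.47 (-1.36). Histone genes, which the cell makes in S phase, went mostly up in this table: 11 of 20 tested rose, 5 fell (3 without Comb replicate 3) and 29 of 49 were too low to test. H2AC6 rose from 3.73, 3.45 and 3.84 FPKM to 22, 20.2 and 20.9 (2.24, SE 0.07, limma adjusted p = 1.2e-09) and H2BC12 from 25.1, 23.3 and 23.3 to 79.4, 74.6 and 76.0 (1.64), while H1-2 fell from 17.9, 20.8 and 22.8 to 9.18, 7 and 7.10 (-1.30). Histone genes have near-identical copies, so how the authors' counting shared reads among them is uncertain.

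Cholesterol and lysosome genes were called higher more often than the 35.4% of all genes, without a test of that difference. In the cholesterol list 16 of 28 tested genes rose, 4 fell and 8 did not pass (median 0.40), and 18 rose with the trend removed; without DMSO replicate 1 the number that fell was 7. INSIG1, the membrane anchor that holds back sterol regulatory factors and is itself their target, went from 78.9, 85.2 and 78.6 FPKM to 295, 291 and 283 (1.83, SE 0.06, limma adjusted p = 1.2e-09). The synthesis enzymes SQLE (47.0, 46.3 and 44.9 FPKM to 104, 101 and 101; 1.13) and MSMO1 (1.56; 1.13 with the trend removed) rose too. HMGCS1 (1.47) rose, while FDPS (-0.49; -0.29 with the trend removed), PMVK (-0.46; -0.25), EBP (-0.62) and the sterol sensor NR1H3 (-0.41; -0.22) fell, so the pathway did not rise at every step. Fatty acid genes gave 14 higher, 6 lower and 10 not past the threshold among 30 tested (median 0.11; 0.07 with the trend removed). FABP5, a fatty acid carrier, fell from 38.2, 40.9 and 43.3 FPKM to 22.5, 23.0 and 21.4 (-0.84), and HILPDA, which blocks lipid droplet breakdown, by 0.85. The triglyceride hydrolase PNPLA3 rose by 0.76.

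Among lysosome membrane proteins and proteases, 31 of 54 tested genes (66 listed) rose, 9 fell and 14 did not pass (median 0.35); those that fell numbered 4 without ABT replicate 2 or ABT replicate 3, and 5 with the trend removed. CTSH, a cathepsin, rose from 4.62, 4.72 and 5.21 FPKM to 12.1, 12.1 and 12.9 (1.20), the mannosidase MANBA from 2.90, 2.41 and 2.48 to 7.84, 7.41 and 6.82 (1.22) and the sialic acid exporter SLC17A5 from 2.42, 2.74 and 2.77 to 6.87, 6.80 and 7.20 (1.13), with limma adjusted p-values of 4.1e-07 or lower. Every Comb library exceeded every ABT library in these genes, while 76.5% of all tested genes lacked overlap in either direction. A TFEB-type CLEAR word, TCACGTGA, was found in 7 of 38 lysosome promoters (18.4%) against 2.16% of tested genes, and the genes that hold it had a median of 0.07 (n = 7) against 0.37 for the rest (n = 31). The promoter of CTSA is shown because it had the largest rise among the genes with the word; capitals mark the word in the 120 bases before its start, chr20:45891215-45891334 on the plus strand of GRCh38.p14 (RefSeq), whose product protects lysosomal sialidase and which rose by 0.78.
CTSA: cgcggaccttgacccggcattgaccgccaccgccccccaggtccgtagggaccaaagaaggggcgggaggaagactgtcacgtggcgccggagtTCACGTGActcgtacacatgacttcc
Of 38 autophagy genes tested, 21 rose, 4 fell and 13 did not pass (median 0.24), beside shares of 35.4% higher and 31.7% lower over all genes. With the trend removed 21 rose and 6 fell. The cargo receptor SQSTM1 rose from 11.1, 12.6 and 12.3 FPKM to 29.9, 29.2 and 31.1 (1.26, SE 0.09, limma adjusted p = 3e-07), its relative NBR1 from 8.40, 7.13 and 6.89 to 14.9, 14.8 and 15 (0.91), and the membrane marker MAP1LC3B from 16, 16.7 and 16.8 to 27.6, 26.9 and 26.6 (0.68).

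Stress responses differed from each other. The shares over all genes were 35.4% higher and 31.7% lower, and a difference from them was not tested. In the unfolded protein response of the endoplasmic reticulum, 16 of 34 tested genes rose, 4 fell and 14 did not pass (median 0.15), and 15 rose and 7 fell with the trend removed. The chaperone HSPA5 rose from 93.3, 88.9 and 86.5 FPKM to 135, 133 and 136 (0.59), DNAJB9 from 6.16, 5.33 and 5.24 to 16.8, 16.9 and 16.4 (1.43, and 1.14 with the trend removed) and the degradation adaptor SEL1L from 12, 9.35 and 7.71 to 23.9, 26.3 and 24.8 (1.30; 0.76 with the trend removed). The ATF4 and CHOP list went both ways, with 13 higher, 17 lower and 7 not past the threshold among 37 tested. Its share of higher genes was near that of all genes. Its serine synthesis genes fell: PHGDH from 15.2, 16.7 and 18.1 FPKM to 4.07, 4.13 and 3.84 (-1.81, SE 0.11, limma adjusted p = 6.2e-08) and PSAT1 from 106, 108 and 105 to 45.1, 40.8 and 46.3 (-1.25), along with the serine hydroxymethyltransferase SHMT2 (-1.18). Other members rose, among them the cystine importer SLC7A11 from 0.897, 0.592 and 0.533 FPKM to 4.92, 5.43 and 4.89 (1.87; 1.15 with the trend removed; it reached the filter mainly through ELI and Comb, where it was higher), the phosphatase subunit PPP1R15A from 22.5, 25.6 and 23.7 to 49.2, 49.3 and 49.5 (1.02), and DDIT3, which encodes CHOP (0.80). ATF4 itself was 0.27 lower, and -0.07 with the trend removed.

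Oxidative defence genes rose for the most part, while heme and iron genes went both ways. Over all genes 35.4% were higher and 31.7% lower, and no difference from those shares was tested. Of 34 tested genes of the NRF2 list, 21 rose, 5 fell and 8 did not pass (median 0.49), and 24 rose with the trend removed. NFE2L2, which encodes NRF2, went from 3.88 ± 0.855 to 10.8 ± 0.542 FPKM (SD, n = 3; 1.29, limma adjusted p = 0.00011), and its inhibitor KEAP1 fell by 0.43 (-0.20 with the trend removed). HMOX1 was 9.69 times higher in Comb than in ABT. The quinone reductase NQO1 rose by 0.85, the glutathione synthesis subunit GCLM by 1.11 (0.52 with the trend removed), and the redox regulator TXNIP from 28.3, 31.1 and 28.7 FPKM to 69.5, 65.6 and 68.4 (1.18). The 5 that fell were AKR1B1 (-0.96), GSTP1 (-0.64; -0.41 with the trend removed), KEAP1, CBR1 (-0.39) and GPX1 (-0.38), and GPX1 no longer passed with the trend removed (-0.15, limma adjusted p = 0.26). For iron, the ferritin heavy chain FTH1 rose from 59.9, 64.0 and 43.0 FPKM to 201, 210 and 235 (1.95, SE 0.15, limma adjusted p = 6.3e-07), the light chain FTL from 3766 ± 372 to 6061 ± 28.5 (0.69), and the transferrin receptor TFRC from 34.8, 28.0 and 25.7 to 85.8, 89.4 and 87.3 (1.55; 1.12 with the trend removed). In all, 11 of 20 tested heme and iron genes rose and 7 fell (4 with the trend removed). Ferritin genes have many processed pseudogenes, so the sharing of their reads is uncertain.

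Mitochondrial genes were mostly lower. For all lists of this paragraph, the shares over all genes were 35.4% higher and 31.7% lower. Whether any list differed from them was not tested. Among 71 tested nuclear genes of oxidative phosphorylation, 43 fell, 7 rose and 21 did not pass (median -0.29), and with the trend removed 42 fell and 2 rose. The core subunit UQCRC1 fell from 65.5, 71.6 and 80.6 FPKM to 38.6, 38.6 and 38.1 (-0.89) and NDUFV1 from 43.9, 46.1 and 46.9 to 26.8, 25.6 and 26.3 (-0.78). NDUFC2 was the largest exception, at 4.43, 4.36 and 4.88 FPKM against 9.56, 9.11 and 9.13 (0.89). Of the 13 genes encoded on the mitochondrial genome, 10 fell, 0 rose and 3 did not pass (median -0.35), with MT-CYB at 3720, 4261 and 4350 FPKM in ABT and 2897, 2905 and 2860 in Comb (-0.51, SE 0.09, limma adjusted p = 0.00042). Their share of reads was 6.41, 7.37 and 7.35% in ABT and 5.66, 5.57 and 5.65% in Comb, and rescaling to the other reads, tried after seeing the data, moved the median of all genes by no more than 0.03. Genes of the mitochondrial ribosome and import fell in 31 of 51 cases and rose in 6 (median -0.38), with MRPL37 going from 62.8, 71.2 and 79.0 FPKM to 31.6, 30.4 and 29.2 (-1.19) and the import chaperone TIMM10 from 91.5, 94.5 and 104 to 47.5, 46.5 and 46.6 (-1.03). Glycolysis gave 12 lower, 8 higher (5 without ABT replicate 2 or Comb replicate 3) and 5 not past the threshold among 25 tested. PGAM1 fell from 206, 228 and 235 FPKM to 126, 119 and 124 (-0.85) and LDHA by 0.46, while the hexokinase HK2 rose by 0.73. Among MYC targets and ribosome biogenesis genes, 21 fell, 13 rose and 13 did not pass of 47 tested, and the nucleolar factor TCOF1 fell from 16, 17.1 and 17.8 FPKM to 7.42, 7.09 and 7.84 (-1.09).

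**Figure D2:**
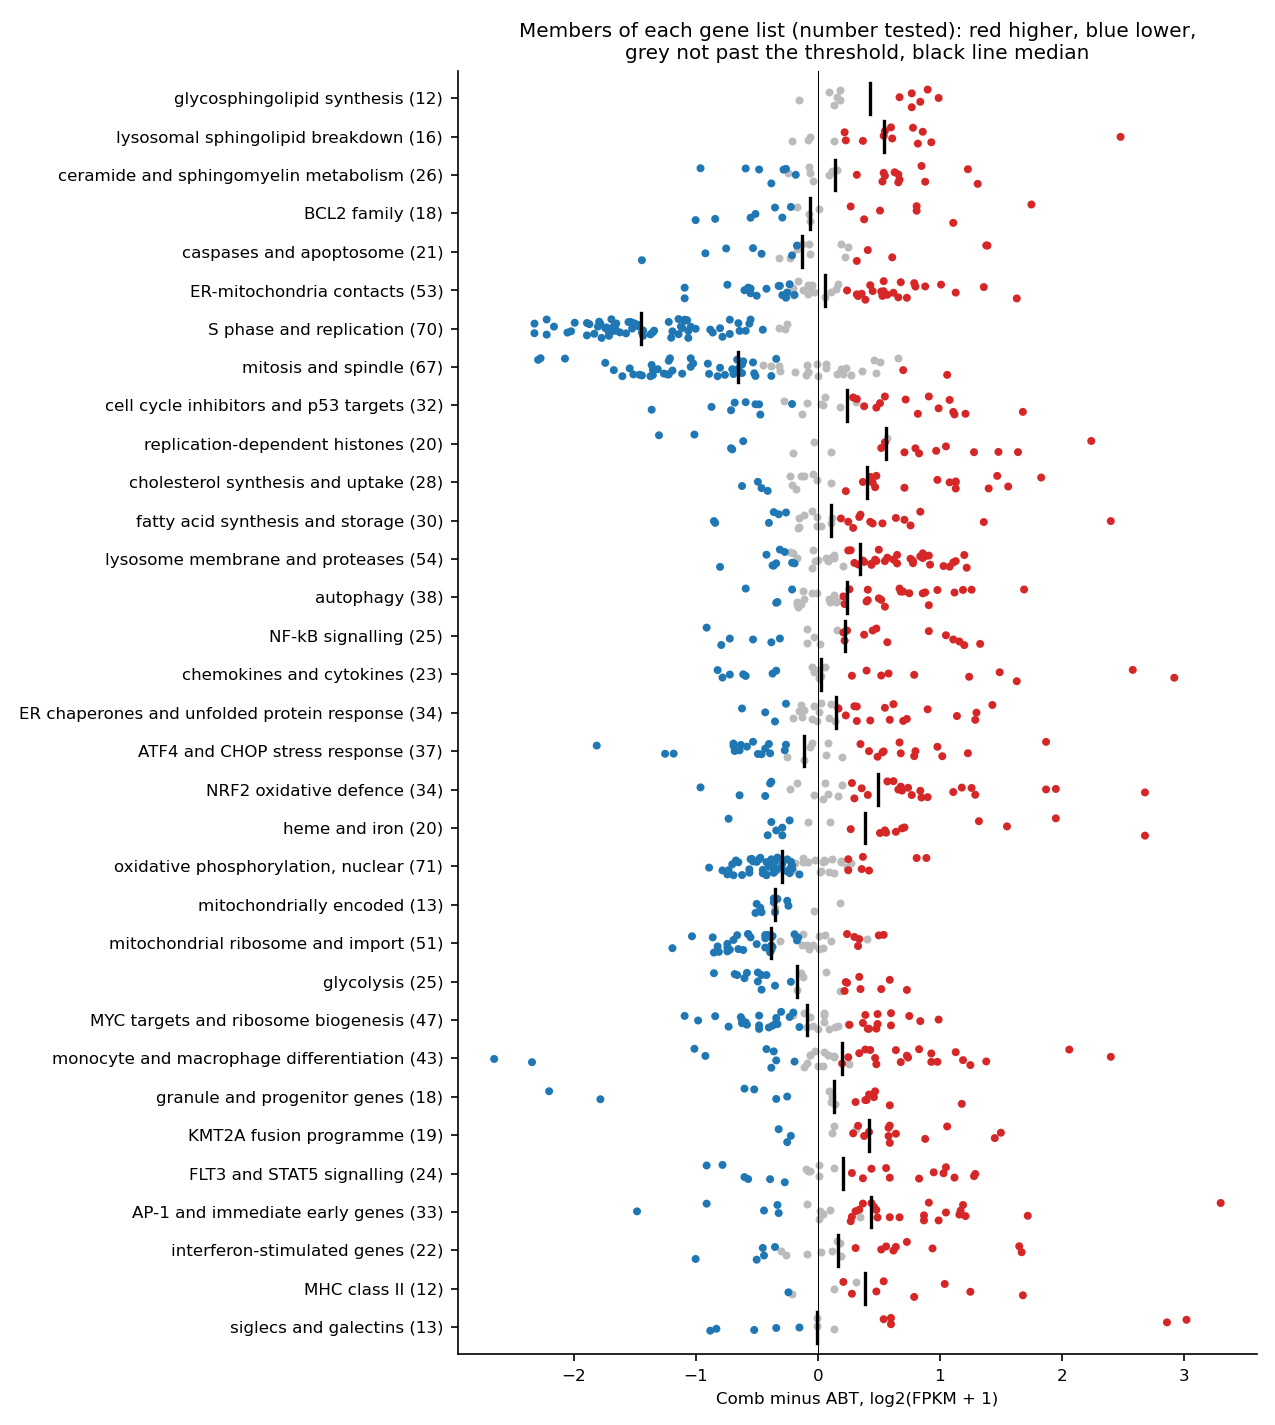
Comb minus ABT on the log2(FPKM + 1) scale (x axis) for each tested member (points) of 33 gene lists (rows), red where called higher, blue where called lower and grey otherwise, with a black line at the median of the list. S phase genes lie wholly below 0 with a median of -1.45, sphingolipid breakdown has its median at 0.54, and the BCL2 family straddles 0.

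Inflammatory and myeloid genes changed in both directions, as did all tested genes, of which 35.4% were higher and 31.7% lower. No difference from those shares was tested. In NF-kB signalling 14 of 25 tested genes rose, 6 fell and 5 did not pass (median 0.22). The subunit NFKB2 rose from 5.35, 6.34 and 6.23 FPKM to 15.1, 15 and 15 (1.20), the adhesion molecule ICAM1 from 6.53, 7.02 and 7.15 to 18.3, 18.8 and 19.5 (1.33) and the feedback inhibitor NFKBIA from 9.54, 10.9 and 10.3 to 22.4, 21.4 and 23.0 (1.05), with limma adjusted p-values of 2.8e-06 or lower. The cytokine TNF, in contrast, fell from 99.3, 89.9 and 94.3 FPKM to 55.9, 56.7 and 57.8 (-0.72, SE 0.07, limma adjusted p = 3.1e-06). Of 23 chemokine and cytokine genes tested (46 listed), 10 rose and 7 fell. The monocyte attractant CCL2 rose from 2.92, 2.75 and 2.47 FPKM to 8.30, 6.93 and 8.18 (1.24), and the median of this list was 0.03. Of 33 immediate early and AP-1 genes tested, 22 rose and 5 fell (3 with the trend removed; median 0.44), with KLF6 going from 3.09, 2.86 and 2.45 FPKM to 12, 10.9 and 11.7 (1.72) and DUSP10 from 9.58, 10.5 and 9.53 to 23.5, 22.9 and 23.8 (1.17), and FOSL2 falling from 18.6, 19.6 and 20.7 to 6.5, 6.22 and 6.44 (-1.48).

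Monocyte and macrophage genes gave 21 higher, 9 lower and 13 not past the threshold of 43 tested (75 listed). For this and the next lists, the shares over all genes were 35.4% higher and 31.7% lower. CHI3L1, a chitinase-like secreted protein of macrophages, rose from 44.7, 50 and 50.7 FPKM to 207, 199 and 210 (2.06, SE 0.08, limma adjusted p = 3e-09), and the Fc receptor FCGR2A from 2.56, 2.42 and 2.69 to 8.12, 8.05 and 8.67 (1.38). S100A8 and S100A9 in the same list fell, as did MPEG1, a macrophage pore protein (-1.01), and the lineage factor SPI1 differed by -0.06 (limma adjusted p = 0.55; 0.17 and called with the trend removed). Among granule and progenitor genes 8 rose and 6 fell of 18 tested, with PLAC8 falling from 77.6, 74.3 and 80.4 FPKM to 22.3, 21.4 and 21.7 (-1.78, SE 0.05, limma adjusted p = 1.2e-09) and the granule proteoglycan SRGN rising from 818, 674 and 706 to 1662, 1656 and 1668 (1.18; 0.81 with the trend removed). Siglec and galectin genes split 5 to 5 of 13 tested (3 lower with the trend removed and without any of 5 single libraries, ELI replicate 3, ABT replicates 2 and 3 and Comb replicates 1 and 2): SIGLEC6 and LGALS2 rose, and SIGLEC12 fell from 36.7, 32.8 and 38.7 FPKM to 18.9, 19.4 and 19.2 (-0.88). Interferon-stimulated genes also split, 9 higher and 5 lower of 22 (8 lower with the trend removed); the membrane protein IFITM1 rose from 9.82, 11.3 and 10.5 FPKM to 34.3, 35.0 and 36.2 (1.65) and the interferon brake USP18 fell from 2.05, 1.93 and 2.51 to 0.580, 0.558 and 0.596 (-1).

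For antigen presentation by MHC class II, 8 of 12 tested genes rose, 1 fell and 3 did not pass (17 listed; median 0.39). Their master activator CIITA rose from 1.65, 1.65 and 1.71 FPKM to 4.41, 4.58 and 4.49 (1.04, SE 0.07, limma adjusted p = 1.2e-07). HLA-DRA rose from 40.1, 39.4 and 41.4 FPKM to 128, 127 and 138 (1.68, limma adjusted p = 3.6e-09), HLA-DPA1 from 2.36, 2.83 and 2.51 to 7.81, 7.22 and 7.39 (1.25), and the invariant chain CD74 from 108, 124 and 118 to 201, 199 and 204 (0.79). The 1 member that fell was RFXANK (-0.24), a subunit of the factor that binds class II promoters, and it was at -0.02 with the trend removed. HLA genes are polymorphic and have close relatives, so reads mapped to a reference may be shared between them.

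Genes tied to the driver lesions of the line were called higher more often than lower. Over all genes 35.4% were higher and 31.7% lower, and no difference from those shares was tested. Of 19 tested genes of the KMT2A fusion programme, 13 rose and 3 fell (median 0.42). The homeobox genes MEIS1 (4.23, 3.45 and 3.55 FPKM to 6.69, 6.24 and 6.17; 0.64, and 0.24 with the trend removed) and HOXA10 (14.6, 15 and 14.7 to 18.7, 18.3 and 19.3; 0.33, and 0.51 with the trend removed) rose by small amounts. Downstream of FLT3 and STAT5, 12 genes rose and 6 fell of 24 tested. The kinase PIM1 rose from 39.0, 41.2 and 41.0 FPKM to 99.7, 98.1 and 100 (1.28, SE 0.09, limma adjusted p = 3.5e-07), the feedback inhibitor SOCS2 from 3.45, 3.54 and 3.48 to 8.15, 8.19 and 8.51 (1.05), and the cyclin CCND2 from 4.78, 4.18 and 5.00 to 10.4, 9.74 and 9.55 (0.95).

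**Figure D3:**
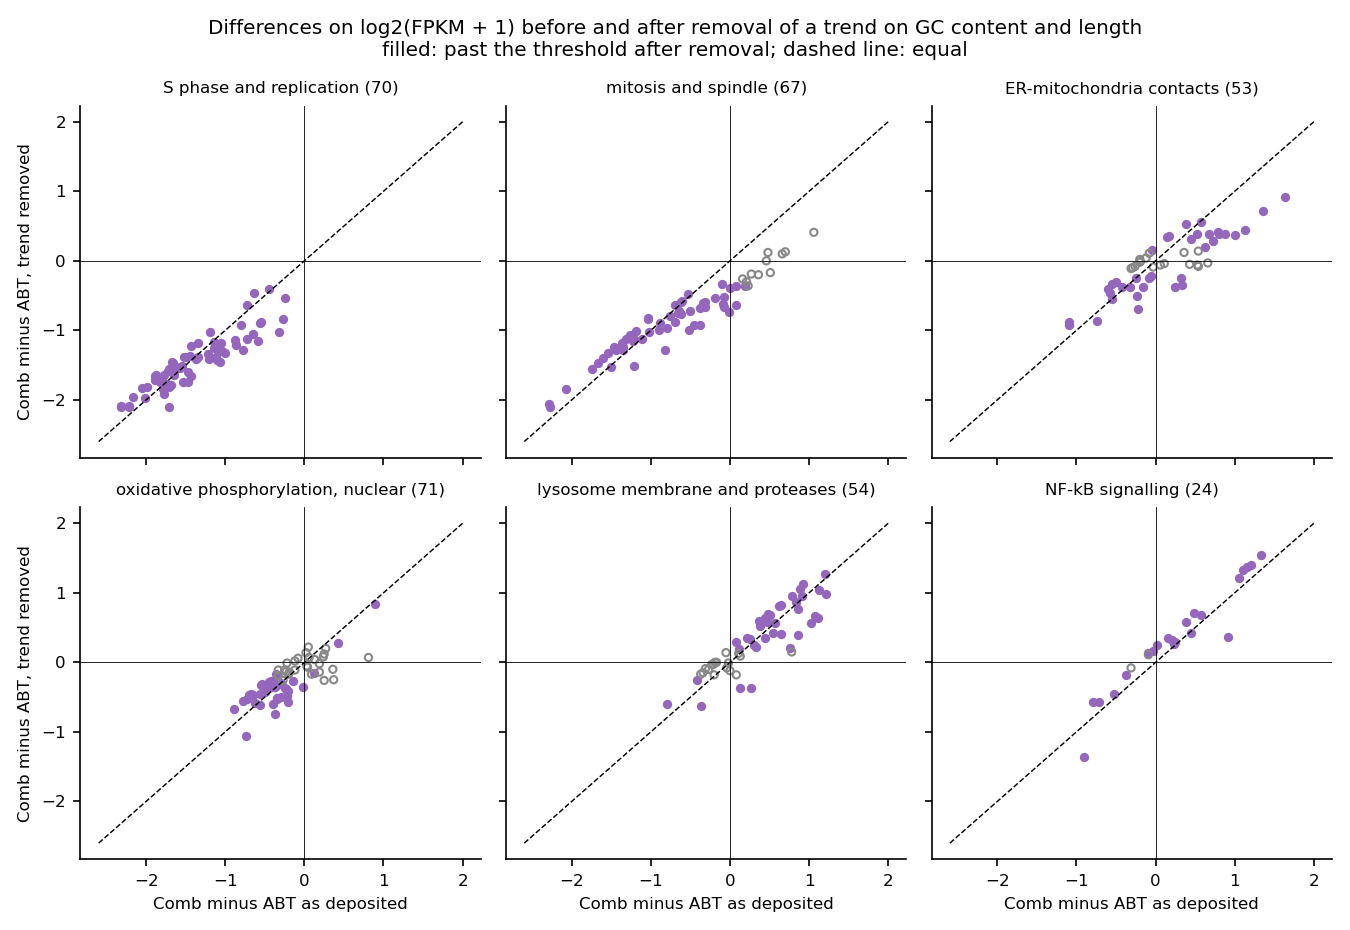
Comb minus ABT as deposited (x axis) against the same difference after removal of the trend (y axis), both on log2(FPKM + 1), for the members of 6 lists, filled where past the threshold after removal. S phase genes stay at a median near -1.44 on both axes, while mitotic and contact genes on the right side of their panels drop below the dashed line of equality.

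Whether venetoclax altered the response to eliglustat was asked by comparing Comb minus ABT with ELI minus DMSO, differences that share no library. Eliglustat alone changed 3600 genes (36.1%), 3303 of which were also called in Comb minus ABT, which is 91.8% of the first list and 49.4% of the second, and 3296 of them had the same sign. Across the 9959 genes, which are not independent replicates, the 2 differences had a Pearson correlation of 0.90, and their SD was 0.553 in Comb minus ABT and 0.334 in ELI minus DMSO. A shared bend with GC content is part of both, with rho of -0.54 and -0.48, and the difference between them had a rho of -0.5. The difference between the 2 responses, the interaction, was called for 532 genes, 167 with a higher value with venetoclax (1.68%) and 365 with a lower one (3.67%); 508 of the 532 had the sign of their call in Comb minus ABT, and 513 were called alike after trend removal. This count was unstable: it was 1123 without DMSO replicate 2, 351 without ELI replicate 2, 322 without ELI replicate 3, 326 without ABT replicate 2, 331 without Comb replicate 2, 332 without Comb replicate 3 and 1703 with the trend removed.

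HMOX1 gave the largest interaction. It read 1.98 ± 0.373 FPKM in DMSO and 2.14 ± 0.326 in ELI (SD, n = 3), so that eliglustat without venetoclax moved it by 0.08 (limma adjusted p = 0.59), and the interaction was 2.60 (SE 0.15, limma adjusted p = 5.3e-06, at most 8.8e-05 over the alternatives tried). CXCL8 rose by 1.58 without venetoclax and by 2.92 with it (interaction 1.34, limma adjusted p = 0.035, 3.7e-05 to 0.099 over the alternatives), and ASAH1 by 1.36 and 2.48 (1.12, SE 0.16, limma adjusted p = 0.0012, at most 0.0059 over the alternatives). The transcriptional corepressor SKIL (1.24; its Comb minus ABT was 2.14, and 1.43 with the trend removed) and H2AC6 (1.27) completed the 5 largest of positive sign among genes that averaged 5 FPKM or more. For H2AC6, ABT minus DMSO was -0.56 (limma adjusted p = 0.0089). At the other end stood CDC45 (-1.46, SE 0.12, limma adjusted p = 3.5e-05), E2F2 (-1.39), the repressor E2F7 (-1.28), TK1 (-1.26) and TCF19 (-1.26), with limma adjusted p-values of 0.00028 or lower. CDC45 went from 36.4 ± 4.69 FPKM in DMSO to 21 ± 0.357 in ELI, and its ABT and Comb libraries are given with the replication genes. The fall of replication genes was thus larger in the presence of venetoclax: the interaction was called lower for 54 of 70 S phase genes (50 to 69 over the alternatives) and 34 of 67 mitotic genes (32 to 51), and higher for 0 of either. The median of the S phase list was -0.53 in ELI minus DMSO, against -1.45 in Comb minus ABT.

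Some gene groups moved by similar amounts whether or not venetoclax was present, in the sense that the interaction was called for none of their members. That held for the 28 cholesterol genes, where INSIG1 rose by 1.70 without venetoclax and 1.83 with it (interaction 0.13, SE 0.08, limma adjusted p = 0.35), and for the 13 mitochondrially encoded genes; a missed threshold does not show equal change. S100A8 fell by 2.27 and 2.34 (interaction -0.08, SE 0.18), and IL4I1 rose by 2.67 and 2.58 (-0.10, SE 0.15). MHC class II genes had 5 positive interactions among 12 (2 to 8 over the alternatives): HLA-DRA rose by 0.74 without venetoclax and 1.68 with it (0.94, SE 0.09, limma adjusted p = 0.00012), and HLA-DPA1 by 0.38 and 1.25 (0.87, limma adjusted p = 0.00024). Their rises with venetoclax started from a lower level: ABT minus DMSO was -0.51 for HLA-DRA and -0.53 for HLA-DPA1 (limma adjusted p = 0.0089 for each). For RAB32 the change was 0.00 without venetoclax and 0.39 with it, and the interaction of 0.39 (SE 0.16) did not pass (limma adjusted p = 0.18, 0.015 to 0.36 over the alternatives). For UGCG the interaction was 0.22 (SE 0.21, limma adjusted p = 0.52), with rises of 0.77 and 0.99.

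**Figure D4:**
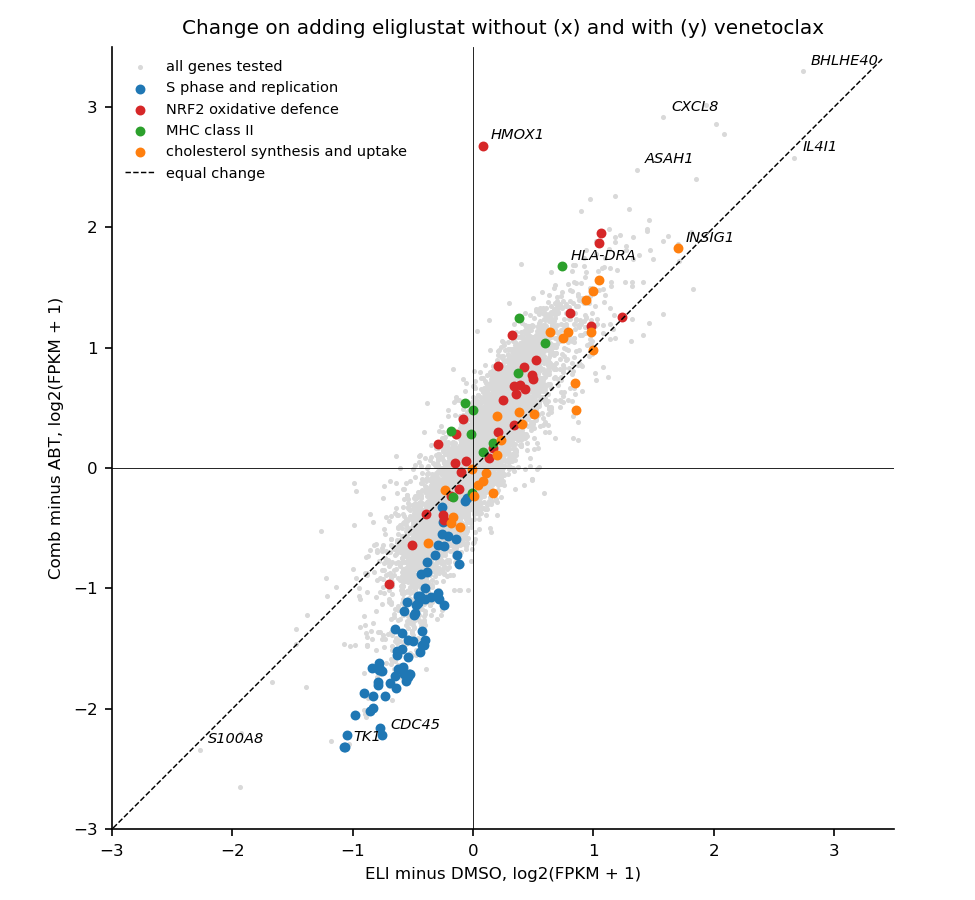
Change on adding eliglustat without venetoclax (ELI minus DMSO, x axis) and with it (Comb minus ABT, y axis), both on log2(FPKM + 1), for 9959 genes in grey and 4 lists in colour, with a dashed line of equal change. S phase genes lie below the line, HMOX1 stands alone at 0.08 and 2.68, and INSIG1 and IL4I1 lie close to the line.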

How the data were processed

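RNA sequencing of 12 libraries, 3 per group, was deposited as 1 table in which the authors give FPKM per gene and library, per the file headers; the sources used here name no aligner, counter, build or annotation. Nearly every value was a whole number of reads once scaled (16360 genes at a tolerance of 1e-05 and 1 more at 0.001), which gave the read totals. A gene was tested if 3 libraries or more reached 1 FPKM; log2(FPKM + 1) was fitted with limma 3.58.1 in R 4.3.3 over all 4 groups without a block, and p-values were adjusted by Benjamini-Hochberg over all tested genes. The alternatives covered scaling, filter, pseudocount, block, fewer libraries, voom on the recovered reads, and removal of a smooth trend (loess, span 0.5) on GC content and gene length, for which 9936 genes had values. No per-sample columns were left unmapped (0).

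The members and gene lists were chosen with earlier results of these data known. The text names UGCG, BCL2, RAB32, the 10 largest called changes in each direction with a mean of at least 5 FPKM and no overlap, the 4 members of each list with the lowest adjusted p, and the 5 largest interactions of each sign. Members of the sphingolipid and BCL2 lists and other genes named beyond that rule were chosen after their values were seen. Same-numbered libraries did not deviate together between ABT and Comb (correlations of -0.26, -0.17 and 0.16), so the numbers were not taken as pairs. A few members of the lists are counted but not reported here by name.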

Additional observations from a re-analysis of the deposited data

Results flagged for a closer look

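The change on adding eliglustat differed with and without venetoclax (limma interaction, adjusted p under 0.05) for 532 of the tested genes; given here are 20, those among the largest changes in Comb minus ABT or the largest interactions, and 5 lists. Higher with venetoclax were HMOX1 by 2.60, CXCL8 by 1.34, H2AC6 by 1.27, SKIL by 1.24, ASAH1 by 1.12, LGALS2 by 1.08, CYP1B1 by 1.08, SIGLEC6 by 0.85, COL6A1 by 0.70 and BHLHE40 by 0.56. Lower with venetoclax were CDC45 (-1.46), E2F2 (-1.39), E2F7 (-1.28), TK1 (-1.26), TCF19 (-1.26), ASF1B (-1.25), MYBL2 (-1.25), ORC1 (-1.18), SPC24 (-1.09) and S100A9 (-0.72). The calls for CXCL8, SIGLEC6, S100A9 and BHLHE40 were lost under at least 1 alternative, with limma adjusted p-values up to 0.099, 0.064, 0.063 and 0.05.

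By list, the interaction was called lower for 54 of 70 S phase genes, 34 of 67 mitotic genes and 6 of 37 genes of the ATF4 and CHOP list, against 3.67% of all genes, and higher for 7 of 34 NRF2 genes and 5 of 12 MHC class II genes, against 1.68%. Other lists had similar shares higher, among them histones (4 of 20), lysosomal sphingolipid breakdown (3 of 16) and heme and iron (3 of 20). The 6 included PHGDH (-1.11) and PSAT1 (-0.95), and were 2 without ELI replicate 3, ABT replicate 2, ABT replicate 3, Comb replicate 2 or Comb replicate 3, 3 without ELI replicate 1, ELI replicate 2 or Comb replicate 1, and 12 without DMSO replicate 2. The 7 included NQO1 (0.64) and FTH1 (0.89, limma adjusted p = 0.027, lost under 6 alternatives with p-values of 0.056 to 0.079), and were 2 without Comb replicate 3, 3 without ELI replicate 2, ELI replicate 3 or Comb replicate 2, and 4 without ABT replicate 2, ABT replicate 3 or Comb replicate 1. The 5 were 2 without ELI replicate 3 and 3 without DMSO replicate 3, ELI replicate 1, ELI replicate 2, ABT replicate 2 or Comb replicate 1.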

How the results depend on the processing

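Across all genes, 145 were called with the opposite sign once the GC and length trend was removed, among them SCARB2, VAPA, CISD2 and ERO1A. Among the genes named by rule none changed direction: 3892 recomputed values of Comb minus ABT kept direction and call and 7 lost the call, all of NCAM1 or NKG7. Genes called in Comb minus ABT ranged from 5795 to 7282 when 1 library was left out; a mean of at least 5 FPKM left 4455 (2112 higher), with fewer genes tested. The interaction, 532 genes (167 higher, 365 lower), depended on the setting: leaving out 1 library gave 322 to 1123 in all, 73 to 415 higher and 248 to 708 lower, and a mean of at least 5 FPKM gave 97 higher. It was 1703 (692 higher, 1011 lower) with the GC and length trend removed and 1801 (1072 and 729) without the 4 libraries numbered 1; the cause was not tested.

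With the replicate block, the interaction was called for 983 genes (385 higher, 598 lower), and with the block and the trend removed for 2182 (941 and 1241). Same-numbered libraries of DMSO, ELI and ABT deviated together (correlations of 0.24 to 0.88), and those of Comb and ABT did not. Libraries of unlike number in DMSO, ELI and ABT had correlations of -0.82 to 0.73. The 0.73 was between DMSO replicate 2 and ABT replicate 3, against 0.39 between DMSO replicate 2 and ABT replicate 2. The pairing is thus not established. The trend removed for the 6 libraries alone (6989 genes called) and scaling to reads outside mitochondrially encoded genes were chosen after seeing the data. With 3 libraries a group from 1 line, small changes and low genes are not resolved.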
